A study of Mus musculus with 9 samples.

Results

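The genes described here encode the respiratory chain of mitochondria and ATP synthase from the nucleus, and their RNA was measured in mouse liver. They were taken by name, as the protein-coding genes of the GENCODE M21 annotation whose symbols begin with Nduf, Uqcr, Cox4, Cox5, Cox6, Cox7, Cox8 or Atp5, together with Sdha, Sdhb, Sdhc, Sdhd, Cyc1 and Cycs. This gave 96 of the 54532 gene IDs counted, under 95 symbols, since Atp5o has a second ID. By complex these were 36 subunits of complex I, 8 assembly factors of complex I that the name rule also takes in, 4 subunits of complex II, 9 of complex III, cytochrome c, 20 of complex IV and 18 of complex V. Ndufa4, named for complex I and known as a subunit of complex IV, was placed with complex IV, as was its paralog Ndufa4l2. Of the 96, 89 passed the filter on low counts and were tested, and the 7 that did not are 6 genes of complex IV and the second Atp5o ID.

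RNA of 9 livers was sequenced, with 3 libraries each of a high-fat diet with human IgG1 (HFD + IgG1), a high-fat diet with PBS (HFD + PBS) and a normal diet. All mice were male ApoE-/- animals on the C57BL/6 background, per the labels and the series design, so the controls lack apolipoprotein E as well. The high-fat diet, with 41% of its calories as fat, was given to HFD + IgG1 and HFD + PBS mice for 20 weeks beginning at 4 weeks of age, and 1 week of chow came after it. HFD + IgG1 mice received 3 mg of a recombinant human IgG1 into the peritoneum at 25, 26 and 27 weeks of age (its target is unnamed in the labels), HFD + PBS mice received PBS, and both were killed at 29 weeks. For the normal diet mice, the sources used here give neither the age at death nor any injection. Livers were chosen for sequencing by their lipid staining and triglyceride values, and the treatment label of HFD + IgG1 replicates 6 and 7 reads IgG2 and IgG3 where that of replicate 5 reads IgG1.

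The respiratory chain passes electrons from NADH, at complex I, and from succinate, at complex II, through ubiquinone to complex III, then by cytochrome c to complex IV, which reduces oxygen to water. Complexes I, III and IV pump protons out of the matrix, and complex V, the ATP synthase, lets them back in to make ATP. Most subunits are encoded in the nucleus and imported, while a small core set of complexes I, III, IV and V is encoded by mitochondrial DNA, so these complexes are assembled from the products of both genomes. Complex II is built from nuclear genes alone and is also the succinate dehydrogenase of the tricarboxylic acid cycle. Hepatocytes are rich in mitochondria and use this chain to oxidise the NADH and FADH2 that fatty acid breakdown yields.

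Total counts were 16215194 to 18538463 per library, and the genes described here took 0.631% to 1.07% of them. All 12 hepatocyte markers passed the filter in these libraries. The labels and the reads disagree for 3 libraries: HFD + IgG1 replicate 5 had 235888 counts of the targeted gene Apoe, against 225 to 1655 in each of the others, and HFD + PBS replicate 6 and normal diet replicate 5 had 10970 and 17065 counts of Xist with 0 counts of the Y-linked genes. They stay in the comparisons, and values without them are given beside each. The series design speaks of 9 mice divided among the groups, so p-values here rest on the spread between the livers sequenced. Since these were chosen by lipid staining and triglyceride values, that spread may differ from that of unselected mice.

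Promoter windows, from 250 bases before to 50 bases after each start site, were available from RefSeq on GRCm38.p6 for 77 of the 95 symbols, 2 of them by an older symbol, giving 82 windows. They were searched on both strands for 4 motifs named for factors known to bind respiratory chain promoters: GCGCATGCG for NRF1, CCGGAAG for GABP and other ETS factors, AAGATGGCG for YY1 and TCAAGGTCA for ERR. The NRF1 letters stood in 11 of the 82 windows (13.4%), beside 1.75% of all 32851 windows in the table. The ETS letters stood in 18 (22%, beside 8.86% of all), the YY1 letters in 8 (9.76%, beside 1.4%) and the ERR letters in 2 (2.44%, beside 0.423%), and the matches of different motifs overlapped in 0 windows. In all, 32 windows (39%) held at least 1 of them, beside 11.7% of all windows.

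To show what such a promoter looks like in each complex, a window is printed for complexes I to V and cytochrome c, each from the member with the smallest edgeR p in HFD + IgG1 against HFD + PBS that has a single window with a motif. Ndufa9 (chr6:126849095-126849394, minus strand) holds the YY1 letters, Sdhb (chr4:140961021-140961320, plus strand) the ETS letters, and Uqcrc1 (chr9:108936398-108936697, plus strand) the NRF1 letters. Cycs (chr6:50566520-50566819, minus strand) also holds the NRF1 letters. Cox6a1 (chr5:115348909-115349208, minus strand) holds both NRF1 and ETS letters, and Atp5h (chr11:115419870-115420169, minus strand) the ETS letters. Each is written 5′ to 3′ on the gene's strand with the motif in capitals. They read CTTCCGG where the ETS letters lie on the other strand, and CGCATGCGC where the NRF1 letters do, as in Cycs. A run of 10 capitals holds the NRF1 letters on both strands. A match is a description of the letters, not a binding site.
Ndufa9: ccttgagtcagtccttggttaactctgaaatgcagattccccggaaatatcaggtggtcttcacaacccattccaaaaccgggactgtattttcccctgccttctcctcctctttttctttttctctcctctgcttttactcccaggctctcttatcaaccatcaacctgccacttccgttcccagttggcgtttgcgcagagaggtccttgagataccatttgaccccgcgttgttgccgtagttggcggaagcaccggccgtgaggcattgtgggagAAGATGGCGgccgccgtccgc
Sdhb: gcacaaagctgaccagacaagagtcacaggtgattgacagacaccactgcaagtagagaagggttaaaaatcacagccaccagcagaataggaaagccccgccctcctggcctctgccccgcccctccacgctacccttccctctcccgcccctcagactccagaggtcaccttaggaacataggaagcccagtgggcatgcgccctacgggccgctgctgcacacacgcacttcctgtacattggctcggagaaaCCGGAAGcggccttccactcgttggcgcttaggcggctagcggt
Uqcrc1: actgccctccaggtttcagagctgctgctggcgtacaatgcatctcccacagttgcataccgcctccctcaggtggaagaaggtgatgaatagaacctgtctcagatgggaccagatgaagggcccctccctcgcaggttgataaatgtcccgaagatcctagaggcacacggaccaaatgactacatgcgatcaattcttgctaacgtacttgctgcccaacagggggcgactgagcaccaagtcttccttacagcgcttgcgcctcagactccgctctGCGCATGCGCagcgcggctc
Cycs: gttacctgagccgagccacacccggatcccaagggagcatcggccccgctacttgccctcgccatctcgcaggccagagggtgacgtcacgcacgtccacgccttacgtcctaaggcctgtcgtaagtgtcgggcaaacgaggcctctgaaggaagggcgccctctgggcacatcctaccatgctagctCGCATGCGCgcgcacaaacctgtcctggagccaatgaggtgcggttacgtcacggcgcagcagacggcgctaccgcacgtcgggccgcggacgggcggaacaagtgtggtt
Cox6a1: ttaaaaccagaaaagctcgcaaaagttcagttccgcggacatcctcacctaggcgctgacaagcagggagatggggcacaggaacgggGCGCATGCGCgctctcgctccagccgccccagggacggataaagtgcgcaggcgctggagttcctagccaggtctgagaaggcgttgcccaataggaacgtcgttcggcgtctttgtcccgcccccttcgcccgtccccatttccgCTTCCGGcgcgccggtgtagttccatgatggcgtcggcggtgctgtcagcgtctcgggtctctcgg
Atp5h: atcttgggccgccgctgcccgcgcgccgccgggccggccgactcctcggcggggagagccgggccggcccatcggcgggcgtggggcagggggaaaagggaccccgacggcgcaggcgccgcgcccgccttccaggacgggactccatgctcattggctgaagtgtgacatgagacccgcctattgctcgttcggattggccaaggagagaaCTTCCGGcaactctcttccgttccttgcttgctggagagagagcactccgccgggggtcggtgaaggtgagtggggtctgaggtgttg

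Levels differed widely among the genes. Counts scaled to a common library total with edgeR's TMM factors (CPM) were divided by annotated exon length, for a rough comparison of genes, and averaged over the 9 libraries. The length joins all annotated exons of a gene, for example 702 bases in Cox6a1 and 6883 in Ndufab1, so ranks depend on the annotation. On this per-length scale Cox6a1, the ubiquitous isoform of a small complex IV subunit, was highest of all at 259 CPM per kb, ahead of Atp5a1 and Atp5b, the alpha and beta subunits that form the catalytic head of ATP synthase, at 236 and 216 CPM per kb. Cox4i1, a complex IV subunit that takes part in its regulation, stood at 189 CPM per kb. The highest level in complex III was that of Uqcrfs1, the Rieske iron-sulfur protein, at 120 CPM per kb. In complex II it was Sdhd, a membrane anchor, at 110, and in complex I Ndufb11, an X-linked accessory subunit, at 104 CPM per kb.

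Cytochrome c itself (Cycs), the mobile carrier between complexes III and IV, was at 19.2 CPM per kb. The assembly factors of complex I, which help build it and are not part of the finished enzyme, were lower as a set, from 1.62 CPM per kb (Ndufaf5) to 15.1 CPM per kb (Ndufaf8). Ndufb2, at 0.654 CPM per kb the lowest of the complex I subunits, has a long annotated exon length of 5628 bases and shares exon sequence with Gm42420, so its level per length is uncertain. Exons of 33 of the 96 IDs overlap those of another annotated gene, among them Atp5j, which overlaps Gabpa on the other strand, and the sources used here do not say how such reads were counted. Of 13 gene IDs with similar names outside the protein-coding class, Ndufb1-ps had 3101 counts over the 9 libraries and the others 945 or fewer.

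**Figure D1:**
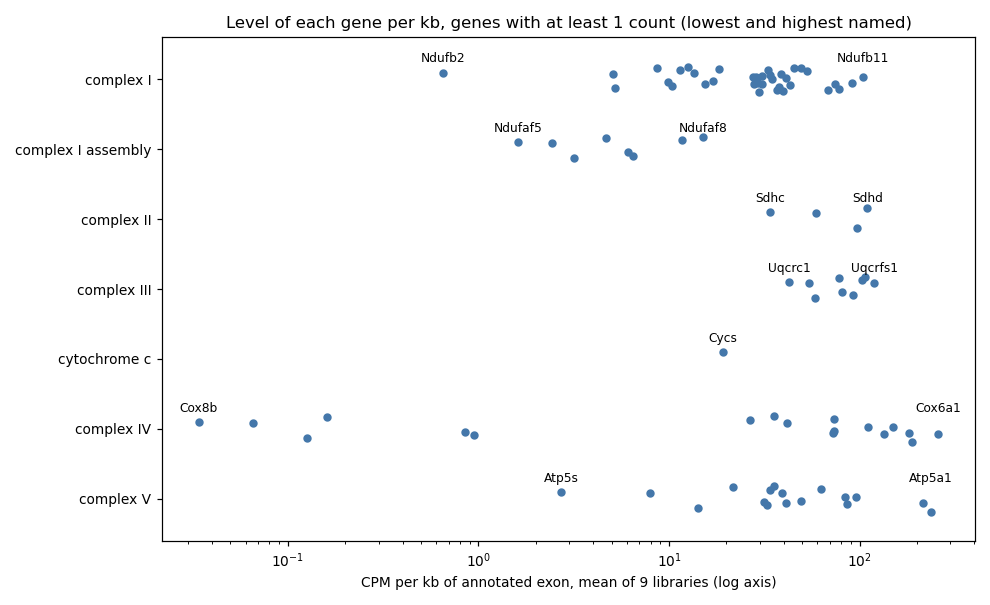
Level of each gene in CPM per kb of annotated exon (log axis), mean of the 9 libraries, for genes with at least 1 count, by complex. Cox6a1 is highest at 259 CPM per kb, and 6 genes of complex IV, all isoforms or paralogs of other members, lie below 1 CPM per kb.

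HFD + PBS livers were first set against normal diet livers. Age at death and any injection are not given for normal diet mice, so diet, PBS injection and age cannot be told apart here. The nuclear-encoded respiratory chain genes had a median log2 fold change of -0.03, beside -0.0028 over all 14763 genes tested, with 39 of 89 positive. By complex the median was -0.04 in complex I, 0.05 in its assembly factors, -0.08 in complex II, -0.13 in complex III, 0.09 in complex IV and 0.04 in complex V. edgeR's quasi-likelihood test with Benjamini-Hochberg adjustment called 0 of the 89 and 0 of all genes (0%), and the smallest adjusted p of the 89 was 0.345 (Cox5a). DESeq2 called 0 of the 89 and 1184 of all genes, and limma-voom 0 of either. At an unadjusted edgeR p under 0.05 there were 0 members in either direction, beside 9.41% of all genes higher and 11.4% lower. The 3 libraries of each group did not overlap in 0 members higher in HFD + PBS, beside 13% of all genes, and in 3 lower (3.37%), beside 15.3% of all genes, so a smaller share of the members than of all genes stood apart in either direction.

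Those 3 were Sdha, Ndufs1 and Ndufb7. Sdha, the flavoprotein of complex II that oxidises succinate (ENSMUSG00000021577, chromosome 13, 74322254 to 74350280 on GRCm38, the assembly also called mm10), had 278, 330 and 305 CPM in HFD + PBS replicates 3, 4 and 6, against 402, 336 and 434 CPM in normal diet replicates 4, 5 and 6. The highest HFD + PBS liver and the lowest normal diet liver were close together, and the log2 fold change was -0.36 (SE 0.25, edgeR adjusted p = 0.43). Ndufs1, the largest core subunit of complex I and a carrier of iron-sulfur clusters, had 66.3, 76.6 and 72.3 CPM in HFD + PBS livers, against 86.8, 78.3 and 94.3 CPM in normal diet livers. The log2 fold change was -0.27 with an SE of 0.16 (edgeR adjusted p = 0.376). Ndufb7, an accessory subunit of complex I, had 32.6, 35.5 and 35.6 CPM in HFD + PBS livers, against 38.5, 37.8 and 43.7 CPM in normal diet livers. This gave a log2 fold change of -0.21 with an SE of 0.18 (edgeR adjusted p = 0.527).

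Negative fold changes with overlapping groups were found in each of complexes I to V. Uqcrc1 and Uqcrc2, the core proteins of complex III, had log2 fold changes of -0.20 each (SE 0.23 and 0.22, edgeR adjusted p = 0.662 and 0.644). Ndufa9, an accessory subunit close to the ubiquinone site of complex I, had -0.29 (SE 0.22, edgeR adjusted p = 0.474). In complex V, Atp5o, the subunit that joins the peripheral stalk to the head, and Atp5a1 had -0.26 each (SE 0.25 and 0.24, edgeR adjusted p = 0.582 and 0.576). Ndufaf1 and Ndufaf6, assembly factors that act early in building complex I, had -0.17 and -0.19 (SE 0.22 and 0.29, edgeR adjusted p = 0.689 and 0.749). Sdhc, Cox4i1 and Cox6a1 had -0.09, -0.18 and -0.12 (SE 0.19, 0.24 and 0.28, edgeR adjusted p = 0.837, 0.691 and 0.843).

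In the other direction Cox5a, a complex IV subunit on the matrix side, had 52.9, 60.3 and 59.4 CPM in HFD + PBS livers, against 38.5, 25.8 and 58.8 CPM in normal diet livers. Normal diet replicate 6 lay among the HFD + PBS livers, so the groups overlapped, and the log2 fold change was 0.49 (SE 0.28, edgeR adjusted p = 0.345). The c subunit, whose ring turns as protons pass through ATP synthase, is encoded by Atp5g1, Atp5g2 and Atp5g3, which make the same mature protein. Their log2 fold changes were 0.30, 0.35 and -0.13 (SE 0.26, 0.22 and 0.31, edgeR adjusted p = 0.53, 0.387 and 0.843). Of complex III, Uqcrb had 0.25 (SE 0.25, edgeR adjusted p = 0.6), and of the assembly factors Ndufaf3 and Ndufaf7 had 0.35 and 0.30 (SE 0.24 and 0.19, edgeR adjusted p = 0.431 and 0.4). The complex I accessory subunits Ndufa7 and Ndufa8 had 0.24 each (SE 0.22 and 0.24, edgeR adjusted p = 0.562 and 0.597), while Uqcrh, the hinge protein of complex III, and Cycs had 0.01 and 0.03 (SE 0.26 and 0.25, edgeR adjusted p = 0.985 and 0.959).

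The 13 respiratory chain subunits encoded by mitochondrial DNA gave other values in the same libraries. Their summed level was 31836, 30485 and 30816 CPM in HFD + PBS livers, against 43386, 44325 and 44107 CPM in normal diet livers, and the groups did not overlap. Of the 13, 1 had a positive log2 fold change (mt-Co3, 0.05), and the median was -0.78. At an unadjusted edgeR p under 0.05 there were 8, all lower, beside 11.4% of all genes lower. None passed the adjustment (lowest edgeR adjusted p 0.078, mt-Nd3, a complex I subunit). For the nuclear genes the sum was 6601, 8204 and 7670.2 CPM in HFD + PBS livers, against 7264, 6403 and 10203 CPM in normal diet livers, and these overlapped. The sum of the mitochondrially encoded subunits over that of the nuclear ones was 4.82, 3.72 and 4.02 in HFD + PBS livers and 5.97, 6.92 and 4.32 in normal diet livers, where replicate 6 lay among the HFD + PBS values.

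Normal diet replicate 6 had the highest level of its group in 85 of the 89 genes. Without it the median log2 fold change of HFD + PBS against normal diet was 0.21, with 79 of 89 positive and 0 called. At an unadjusted edgeR p under 0.05 there were 5 members, all higher, beside 6.4% of genes higher, a share near the background. Without the 3 libraries that go against their labels the median was -0.16, with 20 of 88 positive, and edgeR called 0. The sign of the median also turned with the scaling: with library totals alone it was 0.15 over the members and 0.17 over all genes, with 68 of 89 positive, and with upper-quartile factors it was 0.034 and 0.055, with 53 of 89 positive.

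**Figure D2:**
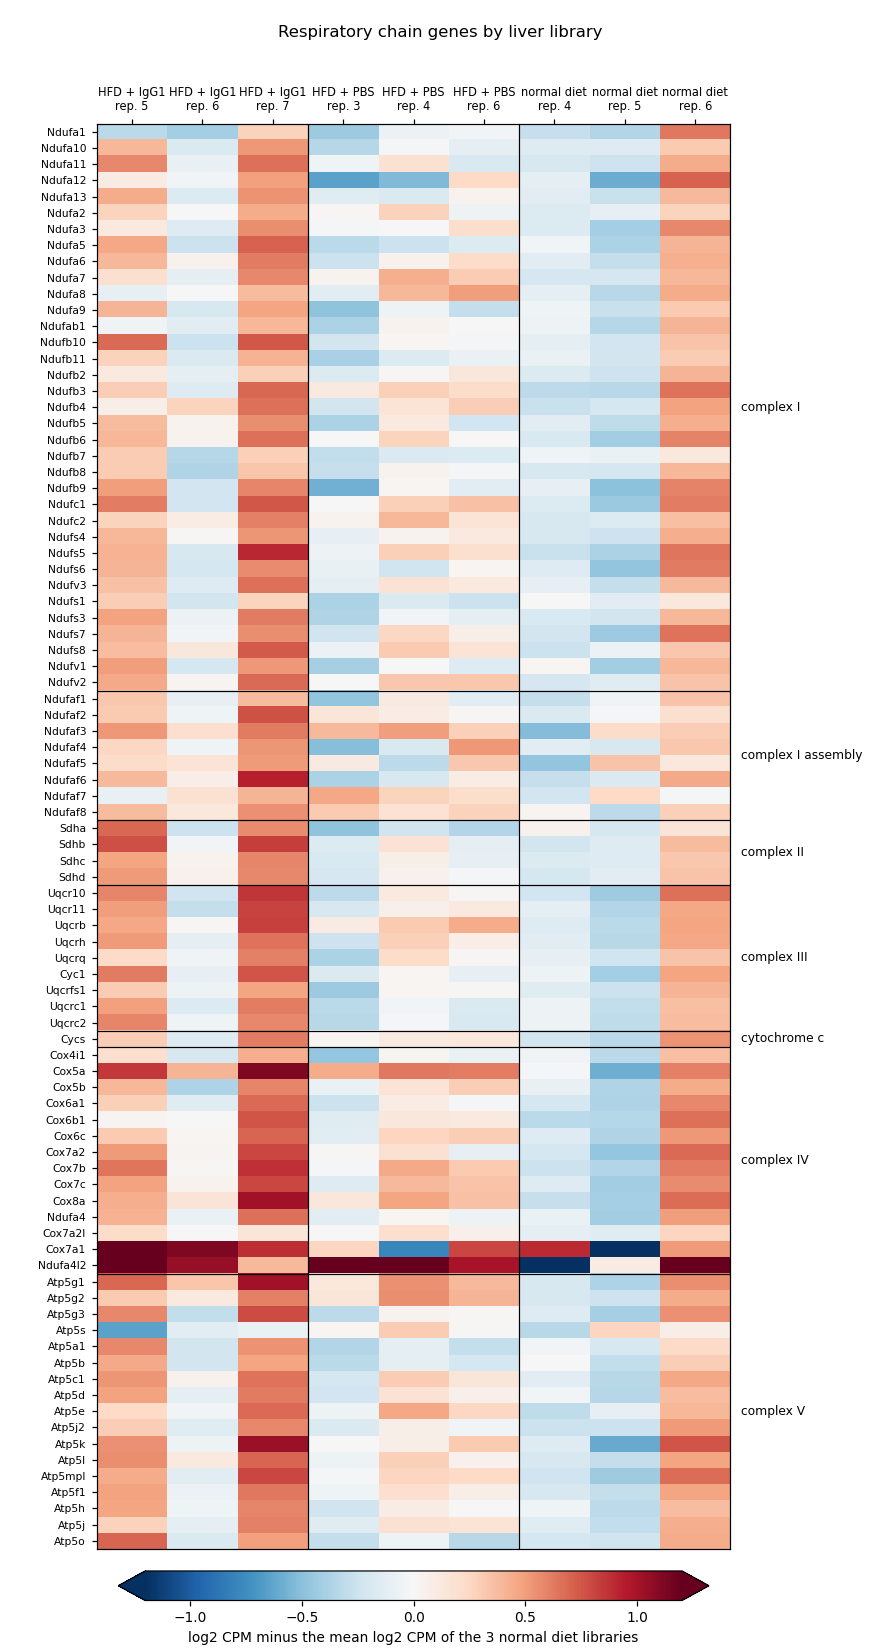
Heat map of 88 of the 89 tested genes (rows, by complex) in the 9 libraries (columns), as log2 CPM minus the mean log2 CPM of the 3 normal diet libraries, with red above and blue below. Most rows are red in HFD + IgG1 replicates 5 and 7 and in normal diet replicate 6, and pale or blue in the remaining libraries.

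HFD + IgG1 livers were next set against HFD + PBS livers, to ask what the antibody did after the high-fat diet. The nuclear-encoded respiratory chain genes had a median log2 fold change of 0.32, beside 0.04 over all genes, and 83 of 89 were positive, beside 7791 of 14763 genes. edgeR called 0 of the 89 and 0 of all genes (0%), with a smallest adjusted p of 0.142 among the 89 (Sdha). DESeq2 called 0 of the 89 and 1265 of all genes, and limma-voom 0 of either. At an unadjusted edgeR p under 0.05 there were 13 members, all higher in HFD + IgG1, which is 14.6% of the 89 beside 12.6% of all genes, a share near the background. Lower there were 0 members, beside 11.6% of all genes. The groups stood apart with HFD + IgG1 higher in 2 members (2.25%, beside 15.3% of all genes) and lower in 1 (1.12%, beside 11.2%).

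Most members thus had a small positive fold change. In bulk RNA, fewer cells of a type and less RNA per cell cannot be told apart. Over the 89 genes the fold change had a Spearman correlation of 0.32 with the mean level, close to the 0.31 over all genes, given as a description across genes of the same libraries. By complex the median was 0.30 in complex I (34 of 36 positive), 0.25 in its assembly factors (7 of 8), 0.52 in complex II (4 of 4), 0.41 in complex III (9 of 9), 0.27 in complex IV (13 of 14) and 0.34 in complex V (15 of 17).

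**Figure D3:**
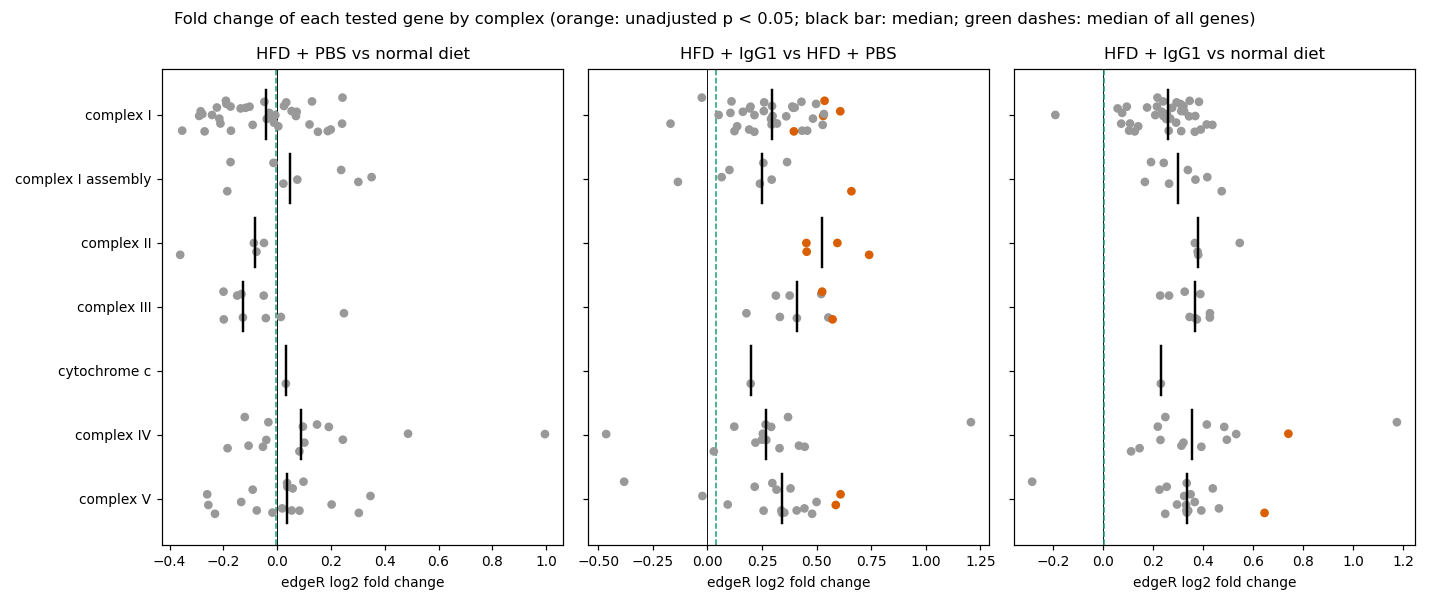
edgeR log2 fold change of each tested gene (points) by complex in the 3 comparisons, with the median of each complex as a black bar, the median of all genes as green dashes and genes at an unadjusted p under 0.05 in orange. In HFD + IgG1 against HFD + PBS all 4 complex II genes are orange, between 0.45 and 0.74.

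In complex I, 4 of 36 subunits had an unadjusted edgeR p under 0.05, a share no larger than the 12.6% of all genes. Ndufs1 had 106, 74.2 and 103 CPM in HFD + IgG1 replicates 5, 6 and 7, against 66.3, 76.6 and 72.3 CPM in HFD + PBS livers. That was a log2 fold change of 0.40 with an SE of 0.16 (edgeR adjusted p = 0.186). Ndufs3, another core subunit, had 81.2, 55.2 and 89.3 CPM in HFD + IgG1 livers, against 45.3, 56.7 and 53.6 CPM in HFD + PBS livers. The log2 fold change was 0.54 with an SE of 0.22 (edgeR adjusted p = 0.186). In both genes HFD + IgG1 replicates 5 and 7 were above every HFD + PBS liver and replicate 6 was among them.

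The other 2 were accessory subunits. Ndufa9 had 91.3, 60.2 and 95.5 CPM in HFD + IgG1 livers, against 49.0, 65.7 and 56.3 CPM in HFD + PBS livers. This gave a log2 fold change of 0.53 with an SE of 0.22 (edgeR adjusted p = 0.182). Ndufa5 had 41.9, 25.4 and 49.3 CPM in HFD + IgG1 livers, against 24.2, 25.3 and 27.0 CPM in HFD + PBS livers. That was a log2 fold change of 0.61 with an SE of 0.26 (edgeR adjusted p = 0.189). Replicate 6 again lay within the HFD + PBS range in both. The 2 subunits with negative values were Ndufa8 and Ndufa7, at -0.17 and -0.03 (SE 0.24 and 0.22, edgeR adjusted p = 0.684 and 0.953), and their signs turned without HFD + PBS replicate 4 (Ndufa7, 0.02) or without the 3 libraries that go against their labels (Ndufa8, 0.0028). Of the assembly factors Ndufaf6 had 9.42, 7.59 and 13.7 CPM in HFD + IgG1 livers, against 5.52, 6.29 and 7.63 CPM in HFD + PBS livers. The log2 fold change was 0.66 with an SE of 0.29 (edgeR adjusted p = 0.197). Ndufaf1 had 0.36 and Ndufaf7, a methyltransferase, had -0.14 (SE 0.22 and 0.19, edgeR adjusted p = 0.326 and 0.687).

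In complex II all 4 subunits had an unadjusted edgeR p under 0.05, beside 12.6% of all genes higher. This depended on the settings: it was 3 of 4 with DESeq2, 2 with limma-voom or RLE factors, and 1 (Sdha) with upper-quartile factors, library totals or the 6 compared libraries alone. It was 4 without HFD + IgG1 replicate 6, and 0 without HFD + IgG1 replicate 5 or 7 or without the 3 libraries that go against their labels. Sdha had 628, 324 and 574 CPM in HFD + IgG1 livers, against 278, 330 and 305 CPM in HFD + PBS livers. This gave a log2 fold change of 0.74 with an SE of 0.25 (edgeR adjusted p = 0.142). Sdhb, the iron-sulfur subunit that passes electrons on to ubiquinone (ENSMUSG00000009863, chromosome 4, 140961203 to 140979193), had 195, 111 and 203 CPM in HFD + IgG1 livers, against 102, 129 and 106 CPM in HFD + PBS livers. That was a log2 fold change of 0.60 with an SE of 0.25 (edgeR adjusted p = 0.189). In both, replicates 5 and 7 were well above the HFD + PBS livers and replicate 6 was below the highest of them.

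The membrane anchors gave smaller differences. Sdhc had 141, 104 and 152 CPM in HFD + IgG1 livers, against 89.2, 106 and 94.3 CPM in HFD + PBS livers (log2 fold change 0.45, SE 0.19, edgeR adjusted p = 0.192). Sdhd had 176, 128 and 184 CPM in HFD + IgG1 livers, against 107, 128 and 121 CPM in HFD + PBS livers (log2 fold change 0.45, SE 0.20, edgeR adjusted p = 0.199). Its groups stood apart, but only just, since HFD + IgG1 replicate 6 and HFD + PBS replicate 4 had nearly the same level. Summed over its 4 genes, complex II was at 973 ± 265 CPM in HFD + IgG1 livers and 632 ± 58.6 CPM in HFD + PBS livers (SD, n = 3 each), with 734 ± 117 CPM in normal diet livers.

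In complex III the core proteins had the smallest p. Uqcrc2 had 195, 125 and 193 CPM in HFD + IgG1 livers, against 103, 128 and 114 CPM in HFD + PBS livers. The log2 fold change was 0.57 with an SE of 0.22 (edgeR adjusted p = 0.169). Uqcrc1 had 234, 148 and 254 CPM in HFD + IgG1 livers, against 133, 162 and 147 CPM in HFD + PBS livers. This gave a log2 fold change of 0.53 with an SE of 0.24 (edgeR adjusted p = 0.206). Of the catalytic subunits Cyc1, cytochrome c1, had 0.55 (SE 0.26, edgeR adjusted p = 0.226) and Uqcrfs1 0.38 (SE 0.23, edgeR adjusted p = 0.324), without reaching an unadjusted p under 0.05. Cytochrome c (Cycs) had 72.8, 53.2 and 90.5 CPM in HFD + IgG1 livers, against 60.2, 63.8 and 64.6 CPM in HFD + PBS livers. Its log2 fold change was 0.20 with an SE of 0.25 (edgeR adjusted p = 0.647), and HFD + IgG1 replicate 6 was below all 3 HFD + PBS livers.

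Complex IV had 0 of 14 tested genes at an unadjusted edgeR p under 0.05, beside 12.6% of all genes higher and 11.6% lower. Its 11 subunits of most tissues were all positive, from 0.12 (Cox5b) to 0.45 (Cox7a2) on the log2 scale. Cox4i1 had 333, 253 and 391 CPM in HFD + IgG1 livers, against 209, 295 and 273 CPM in HFD + PBS livers (log2 fold change 0.33, SE 0.24, edgeR adjusted p = 0.404), and Ndufa4 had 0.42 (SE 0.25, edgeR adjusted p = 0.327). Cox7a2l, known as a factor of supercomplexes of complexes III and IV, had 119, 102 and 114 CPM in HFD + IgG1 livers, against 103, 118 and 107 CPM in HFD + PBS livers (log2 fold change 0.03, SE 0.15, edgeR adjusted p = 0.919). Whether its protein has that role in these mice was not tested.

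In complex V, Atp5o had 65.4, 35.7 and 56.7 CPM in HFD + IgG1 livers, against 33.0, 38.5 and 31.9 CPM in HFD + PBS livers. The log2 fold change was 0.61 with an SE of 0.25 (edgeR adjusted p = 0.183). Atp5a1 had 1063, 609.9 and 1035 CPM in HFD + IgG1 livers, against 556, 661 and 584 CPM in HFD + PBS livers. This gave a log2 fold change of 0.59 with an SE of 0.24 (edgeR adjusted p = 0.185). In both, replicates 5 and 7 were above the HFD + PBS livers and replicate 6 was among them. Atp5b had 0.48 (SE 0.24, edgeR adjusted p = 0.256) and the c ring gene Atp5g3 0.50 (SE 0.31, edgeR adjusted p = 0.336), while Atp5g2 was at -0.02. Atp5s, a coupling factor found with the enzyme, had 3.64, 5.18 and 5.37 CPM in HFD + IgG1 livers, against 5.78, 7.03 and 5.72 CPM in HFD + PBS livers, and was the member whose HFD + IgG1 livers were all lower. Its log2 fold change was -0.38 (SE 0.25, edgeR adjusted p = 0.363).

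HFD + IgG1 replicate 6 was the lowest of its group in 83 of the 89 genes and lay within the HFD + PBS range in 63 of them (70.8%, beside 53.8% of all genes), above it in 2 (2.25%, beside 24.3%) and below it in 24 (27.0%, beside 21.9%). Without it edgeR called 12 of the 89 (13.5%), all higher in HFD + IgG1, beside 7.12% of 15214 genes called higher. The 12 were Sdha and Sdhb of complex II, Ndufs1, Ndufs3, Ndufa5, Ndufa9, Ndufb7 and Ndufb10 of complex I, Uqcrc1 and Uqcrc2 of complex III, and Atp5a1 and Atp5o of complex V. Sdha then had a log2 fold change of 0.98 with an SE of 0.19 (edgeR adjusted p = 0.0102) and Sdhb 0.83 (SE 0.21, edgeR adjusted p = 0.0289), and the median over the 89 was 0.50.

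The count of 13 members at an unadjusted edgeR p under 0.05 depended on single libraries. It was 31 without HFD + IgG1 replicate 6, beside 16.5% of genes higher. It was 0 without HFD + IgG1 replicate 5 or 7, beside 5.28% and 6.68% of genes higher. Without HFD + PBS replicates 3, 4 and 6 it was 1, 8 and 3, beside 8.17%, 8.49% and 9.8%, and without normal diet replicate 4 it was 4, beside 10.6%. It also depended on the scaling, at 9 with RLE factors, 2 with upper-quartile factors and 1 with library totals alone, beside 10.9%, 9.27% and 4.06% of genes higher, and it was 7 with the 6 compared libraries alone, beside 9.84%. Without HFD + IgG1 replicate 7 the median log2 fold change was 0.12 and 62 of 89 were positive. Without the 3 libraries that go against their labels it was 0.28, with 81 of 88 positive and 0 at an unadjusted edgeR p under 0.05, beside 4.08% of genes higher and 4.32% lower. With HFD + IgG1 replicate 5 as the only antibody library, since its own label reads IgG1, the median was 0.38. That is 1 library, the one with high Apoe counts, whose spread is assumed to be that of the other groups. With it, 14 members had an unadjusted edgeR p under 0.05, beside 10.6% of genes higher, and 0 were called. With library totals as the only scaling the members' median was 0.07 and that of all genes -0.20, and 62 of 89 were positive.

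**Figure D4:**
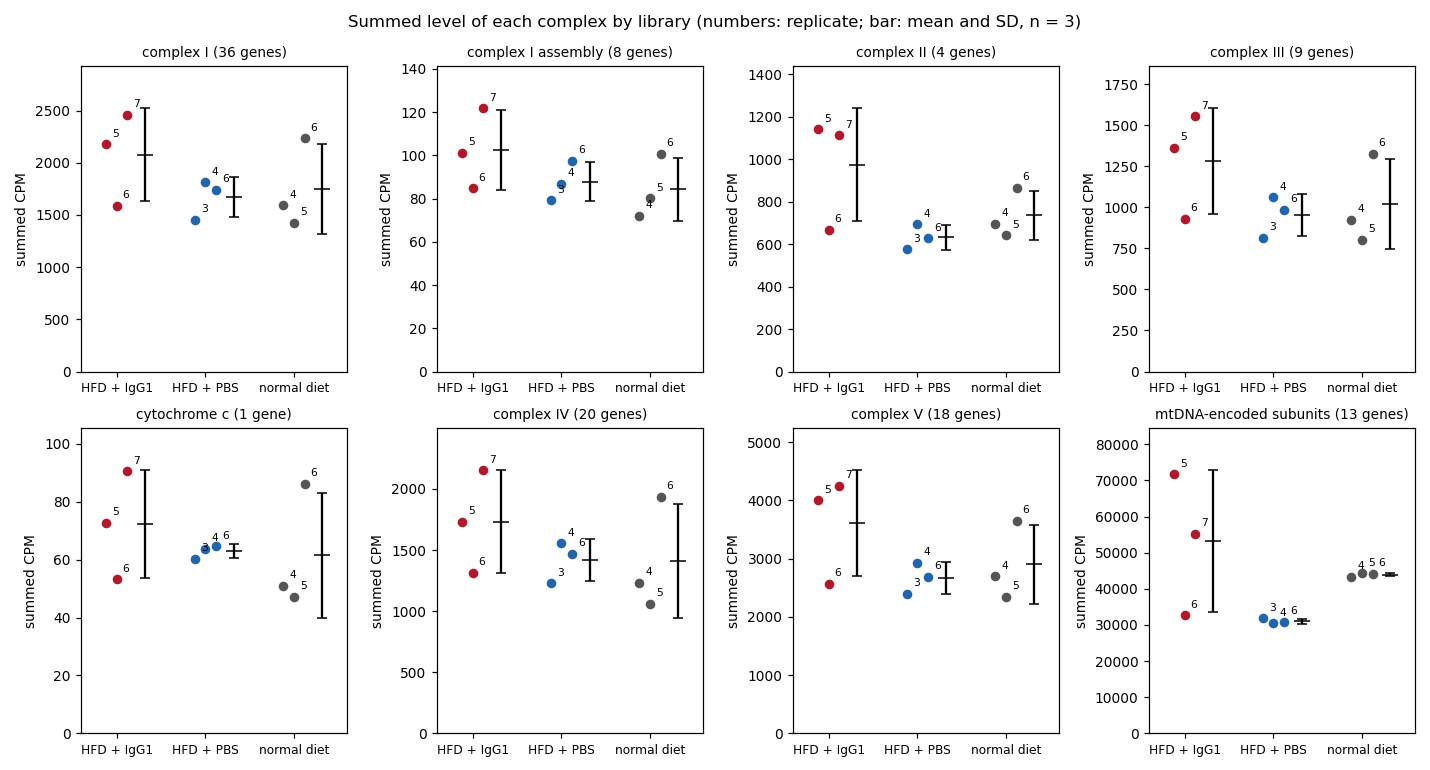
Summed CPM of the genes of each complex and of the 13 mitochondrially encoded subunits in each library (points, numbered by replicate), with mean and SD of each group (n = 3). Complex II is at 1139, 667 and 1112 CPM in HFD + IgG1 replicates 5, 6 and 7 and at 576 to 693 CPM in HFD + PBS livers, and in every panel HFD + IgG1 replicate 6 is the lowest of its group.

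The third comparison set HFD + IgG1 against normal diet. It shares the HFD + IgG1 libraries with the second comparison and the normal diet libraries with the first, and the first and second share the HFD + PBS libraries. The median log2 fold change of the members was 0.32, beside 0.0033 over all genes, with 87 of 89 positive. edgeR called 0 of the 89 and 0 of all genes (0%), while DESeq2 called 0 of the 89 and 111 of all genes, and limma-voom 0 of either. At an unadjusted edgeR p under 0.05 there were 2 members, both higher in HFD + IgG1 (2.25%, beside 3.83% of all genes), and 0 lower, beside 3.21%. The groups stood apart in 0 members, beside 5.54% of all genes higher and 6.41% lower.

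The 2 were Cox5a and Atp5g1. Cox5a (ENSMUSG00000000088, chromosome 9, 57521274 to 57532426) had 69.9, 51.6 and 84.2 CPM in HFD + IgG1 livers, against 38.5, 25.8 and 58.8 CPM in normal diet livers, a log2 fold change of 0.74 with an SE of 0.28 (edgeR adjusted p = 0.644). Atp5g1 had 85.2, 66.4 and 106 CPM in HFD + IgG1 livers, against 46.0, 40.9 and 77.7 CPM in normal diet livers, a log2 fold change of 0.65 with an SE of 0.26 (edgeR adjusted p = 0.666). In both, normal diet replicate 6 was above HFD + IgG1 replicate 6.

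The next smallest p among the members was that of Sdhb, with 195, 111 and 203 CPM in HFD + IgG1 livers, against 97.8, 103 and 149 CPM in normal diet livers (log2 fold change 0.55, SE 0.25, edgeR adjusted p = 0.708). In complex I the smallest p values were those of Ndufs8 and Ndufv2, core subunits that carry iron-sulfur clusters, at 0.41 and 0.39 (SE 0.20 and 0.21, edgeR adjusted p = 0.717 and 0.74), and in complex III those of Uqcrb and Uqcrc2, at 0.43 and 0.37 (SE 0.25 and 0.22, edgeR adjusted p = 0.748 and 0.751). Of the assembly factors Ndufaf3 and Ndufaf8 had 0.42 and 0.34 (SE 0.24 and 0.19, edgeR adjusted p = 0.748 each), and Atp5l, a membrane subunit of ATP synthase, had 0.44 (SE 0.23, edgeR adjusted p = 0.738). Cycs had 0.23 (SE 0.25, edgeR adjusted p = 0.848). The negative values were those of Ndufa1, an X-linked accessory subunit, at -0.19 and Atp5s at -0.28 (SE 0.29 and 0.25, edgeR adjusted p = 0.893 and 0.819). Without normal diet replicate 6 the median was 0.56 and 49 of 89 had an unadjusted edgeR p under 0.05, all higher, beside 5.08% of genes higher. Of these, 0 were called after adjustment (smallest edgeR adjusted p 0.566). Without HFD + IgG1 replicate 6 the median was 0.47, with 28 members at an unadjusted edgeR p under 0.05, beside 7.31% of genes higher. Again 0 were called (smallest edgeR adjusted p 0.144). Without normal diet replicate 5 it was 0.18 with 0 such members, beside 3.07% of genes higher. It was 0.13 without HFD + IgG1 replicate 7 and 0.11 without the 3 libraries that go against their labels. Each of these had 0 such members, beside 1.98% and 1.59% of genes higher.

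The 89 genes ranked the 9 libraries much alike. HFD + IgG1 replicate 7 had the highest value of its group in 80 of the 89 genes and the highest of all 9 libraries in 68, and normal diet replicate 5 had the lowest of all 9 in 47. HFD + IgG1 replicate 7 was among the 3 highest libraries in 84 genes, HFD + IgG1 replicate 5 in 72 and normal diet replicate 6 in 80, and no other library in more than 16. The median deviation of the 89 genes from the normal diet mean, on the log2 scale, was 0.41, -0.07 and 0.61 over the HFD + IgG1 livers, against -0.16, 0.11 and 0.06 over the HFD + PBS livers and -0.16, -0.29 and 0.44 over the normal diet livers.

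Marker genes of liver cell types also differed between these libraries. The 12 hepatocyte markers summed to 183287, 93778 and 146428 CPM in HFD + IgG1 livers, against 56980 to 101563 CPM in HFD + PBS livers and 86288 to 102857 CPM in normal diet livers, with a median log2 fold change of 0.49 in HFD + IgG1 against HFD + PBS (10 of 12 positive). Most of each sum was Alb, at 137765, 65117 and 102646 CPM in HFD + IgG1 livers. Alb was at 37856 to 65696 CPM in HFD + PBS livers and 54985 to 64880 CPM in normal diet livers. The 8 macrophage markers summed to 477, 1226 and 485 CPM in HFD + IgG1 livers, against 1278 to 1554 CPM in HFD + PBS livers and 872 to 1104 CPM in normal diet livers (median -1.36 against HFD + PBS, 0 of 8 positive). The 6 neutrophil markers summed to 12.8, 468 and 19.2 CPM in HFD + IgG1 livers, against 375 to 2939 CPM in HFD + PBS livers and 34.1 to 148 CPM in normal diet livers (median -2.94 against HFD + PBS, 0 of 6 positive).

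The 6 stellate cell and fibroblast markers summed to 363, 540 and 379 CPM in HFD + IgG1 livers, against 503 to 763 CPM in HFD + PBS livers and 411 to 667 CPM in normal diet livers (median -0.68 against HFD + PBS, 0 of 6 positive). No marker of these 4 lists was at 0 in all libraries. HFD + IgG1 replicate 6 held more macrophage, neutrophil and stellate marker RNA than replicates 5 and 7, and less hepatocyte marker RNA. The TMM factors were 0.865, 1.04 and 0.91 for HFD + IgG1 replicates 5, 6 and 7, against 1.26, 0.944 and 1.11 for HFD + PBS replicates 3, 4 and 6. The part of these differences in the respiratory chain result was not tested.

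**Figure D5:**
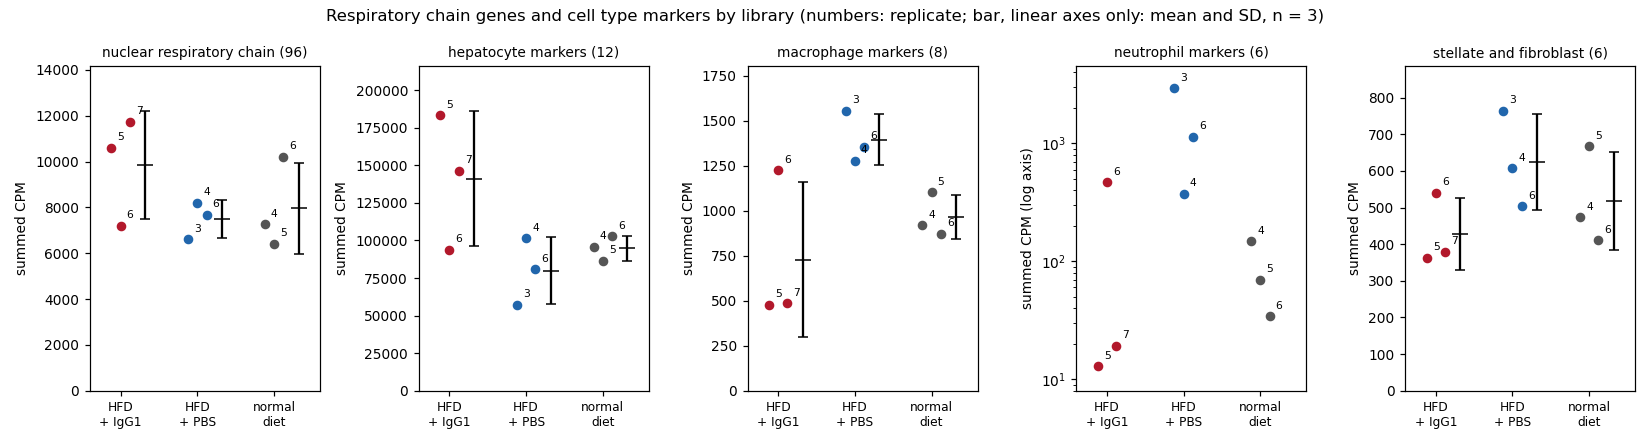
Summed CPM of the 96 respiratory chain genes and of hepatocyte, macrophage, neutrophil (log axis) and stellate cell and fibroblast markers in each library (points, numbered by replicate), with mean and SD (n = 3) on the linear axes. HFD + IgG1 replicates 5 and 7 have the highest hepatocyte sums and the lowest macrophage and neutrophil sums of the 9 libraries, and HFD + IgG1 replicate 6, at 1226 CPM of macrophage markers, is just below the HFD + PBS range.

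Several complex IV subunits have isoforms of other tissues, and the liver carried the ubiquitous forms. Cox4i2, a lung isoform partnering Cox4i1, had 4 counts or fewer in any library, and Cox6a2, the heart and muscle form of Cox6a1, had 7 or fewer. Cox6b2, a testis form of Cox6b1, had 8 or fewer, and Cox8b, the heart and muscle form of Cox8a, 1 or fewer. Cox7b2 and Cox8c, known from testis, had 0 counts in all libraries. Against this, Cox6a1 had 204, 152 and 268 CPM in HFD + IgG1 livers, 140, 179 and 165 CPM in HFD + PBS livers and 145, 130 and 250 CPM in normal diet livers. Of 17 skeletal muscle markers 8 were at 0 in all libraries and the sums were 18.6 to 47.3 CPM, and 0 of 8 heart markers passed the filter, with 3 at 0 in all libraries.

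Of the other partners, Cox6b1 and Cox8a averaged 150 and 181 CPM per kb over the 9 libraries and Cox7b 72.1 CPM per kb. In HFD + IgG1 against HFD + PBS their log2 fold changes were 0.27, 0.25 and 0.29 (SE 0.30 each, edgeR adjusted p = 0.598, 0.633 and 0.559).

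Cox7a1, the heart and muscle isoform partnering Cox7a2, passed the filter at a low level. It had 1.28, 0.641 and 0.543 CPM in HFD + IgG1 livers, against 0.353, 0.172 and 0.516 CPM in HFD + PBS livers and 0.55, 0.111 and 0.42 CPM in normal diet livers. On the CPM scale the HFD + IgG1 livers were all above the HFD + PBS livers, by little in replicate 7, and the log2 fold change was 1.21 (SE 0.68, edgeR adjusted p = 0.289). The raw counts were 18, 12 and 9 against 8, 3 and 10, and these overlapped. Cox7a2 had 84.3, 60.5 and 104 CPM in HFD + IgG1 livers, against 60.1, 67.2 and 55.3 CPM in HFD + PBS livers, a log2 fold change of 0.45 with an SE of 0.30 (edgeR adjusted p = 0.371). Ndufa4l2, a paralog of Ndufa4 known as a hypoxia-induced gene, had 1.36, 0.855 and 0.543 CPM in HFD + IgG1 livers, 1.41, 1.54 and 0.825 CPM in HFD + PBS livers and 0.122, 0.445 and 1.32 CPM in normal diet livers. Its log2 fold change in HFD + PBS against normal diet was 1.00 (SE 0.71, edgeR adjusted p = 0.446), and its exons overlap those of Shmt2 on the other strand.

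Other genes of the pathway were taken from lists chosen with earlier results of these data known, and each is given by counts at an unadjusted edgeR p under 0.05, since edgeR called 0 genes in any of the 3 comparisons after adjustment. These counts are to be read beside the shares of all genes, which were 12.6% higher and 11.6% lower in HFD + IgG1 against HFD + PBS, 9.41% and 11.4% in HFD + PBS against normal diet, and 3.83% and 3.21% in HFD + IgG1 against normal diet. Of the 13 mitochondrially encoded subunits, all were positive in HFD + IgG1 against HFD + PBS, with a median of 0.83, 6 higher and 0 lower, and in HFD + IgG1 against normal diet the median was 0.16 with 0 in either direction. mt-Nd3 had 35.7, 18.4 and 28.4 CPM in HFD + IgG1 livers, 14.0, 12.9 and 13.4 CPM in HFD + PBS livers and 29.1, 41.1 and 27.3 CPM in normal diet livers. The HFD + PBS livers were below both other groups without overlap, with log2 fold changes of 1.03 for HFD + IgG1 against HFD + PBS (SE 0.24, edgeR adjusted p = 0.14) and -1.27 for HFD + PBS against normal diet (SE 0.25, edgeR adjusted p = 0.078).

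Assembly factors outside the name rule, 41 of 44 tested, had a median of 0.28 in HFD + IgG1 against HFD + PBS, with 11 higher and 1 lower. The smallest p among the higher ones were those of Ttc19, a complex III factor, at 0.60 (SE 0.17, edgeR adjusted p = 0.14) and Atpaf2, which helps build the head of ATP synthase, at 0.58 (SE 0.19, edgeR adjusted p = 0.141). The lower one was Atpif1, the inhibitor of ATP hydrolysis by ATP synthase, which had 4.07, 7.0 and 4.83 CPM in HFD + IgG1 livers, 14.6, 7.89 and 8.92 CPM in HFD + PBS livers and 4.46, 6.62 and 7.68 CPM in normal diet livers. Its log2 fold change was -0.98 in HFD + IgG1 against HFD + PBS (SE 0.32, edgeR adjusted p = 0.141) and 0.75 in HFD + PBS against normal diet (SE 0.32, edgeR adjusted p = 0.223). In HFD + PBS against normal diet the list had a median of -0.06 with 1 higher and 3 lower, and in HFD + IgG1 against normal diet 0.22 with 1 higher (Cox16, 0.67, SE 0.25, edgeR adjusted p = 0.635) and 0 lower.

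The 16 regulators of mitochondrial biogenesis had a median of 0.32 in HFD + IgG1 against HFD + PBS (4 higher, 0 lower), -0.23 in HFD + PBS against normal diet (0 higher, 5 lower) and -0.04 in HFD + IgG1 against normal diet (1 higher, 0 lower). Ppargc1a, the coactivator known to drive respiratory chain genes, had 9.56, 16.8 and 5.25 CPM in HFD + IgG1 livers, 6.67, 41.9 and 10.4 CPM in HFD + PBS livers and 23.8, 21.5 and 23.3 CPM in normal diet livers. Its HFD + IgG1 livers were all below the normal diet livers, and the log2 fold change was -1.11 (SE 0.67, edgeR adjusted p = 0.758). Esrra, a nuclear receptor that works with it, had 34.1, 21.4 and 45.6 CPM in HFD + IgG1 livers, 28.8, 24.0 and 29.0 CPM in HFD + PBS livers and 25.2, 20.6 and 36.2 CPM in normal diet livers, with the groups overlapping throughout.

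Nrf1, Gabpa and Tfam, transcription factors of the nuclear genes and of mitochondrial DNA, had log2 fold changes of -0.13, 0.22 and 0.33 in HFD + IgG1 against HFD + PBS (SE 0.24, 0.14 and 0.17, edgeR adjusted p = 0.749, 0.335 and 0.25). In HFD + PBS against normal diet they had 0.21, -0.26 and -0.21 (SE 0.24, 0.14 and 0.17, edgeR adjusted p = 0.645, 0.302 and 0.505). Ppara, the fatty acid-sensing receptor of the liver, had 133, 54.6 and 98.1 CPM in HFD + IgG1 livers, 39.3, 29.7 and 41.8 CPM in HFD + PBS livers and 102, 150 and 95.6 CPM in normal diet livers. The HFD + PBS livers were below both other groups without overlap, with log2 fold changes of 1.37 for HFD + IgG1 against HFD + PBS (SE 0.31, edgeR adjusted p = 0.14) and -1.65 for HFD + PBS against normal diet (SE 0.32, edgeR adjusted p = 0.078).

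Esrrg, a nuclear receptor related to Esrra, had 3.35, 0.481 and 2.35 CPM in HFD + IgG1 livers, 0.265, 0.40 and 0.103 CPM in HFD + PBS livers and 2.32, 2.56 and 3.36 CPM in normal diet livers. The HFD + PBS livers were again below both other groups, but HFD + PBS replicate 4 only just below HFD + IgG1 replicate 6. Levels this low rest on few counts. The log2 fold changes were 2.98 for HFD + IgG1 against HFD + PBS (SE 0.73, edgeR adjusted p = 0.14) and -3.40 for HFD + PBS against normal diet (SE 0.73, edgeR adjusted p = 0.0786). Polrmt, the RNA polymerase of mitochondria, had 0.55 and -0.59 in the same comparisons (SE 0.21 each, edgeR adjusted p = 0.169 and 0.175), without overlap in either. The gene higher in HFD + IgG1 against normal diet was Ppard, a nuclear receptor, at 0.87 (SE 0.26, edgeR adjusted p = 0.572).

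Among the 21 genes of electron entry and ubiquinone synthesis the median was 0.28 in HFD + IgG1 against HFD + PBS (3 higher, 0 lower), -0.20 in HFD + PBS against normal diet (1 higher, 4 lower) and 0.18 in HFD + IgG1 against normal diet (2 higher, 2 lower). Chdh, which feeds electrons from choline into the chain, had 237, 168 and 204 CPM in HFD + IgG1 livers, 125, 132 and 127 CPM in HFD + PBS livers and 274, 273 and 276 CPM in normal diet livers, 3 levels without overlap. Its log2 fold change was -1.10 in HFD + PBS against normal diet (SE 0.16, edgeR adjusted p = 0.0627). Coq8a, needed for ubiquinone synthesis, had 1.41 in HFD + IgG1 against HFD + PBS (SE 0.28, edgeR adjusted p = 0.14).

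The 14 enzymes of the tricarboxylic acid cycle had a median of 0.31 in HFD + IgG1 against HFD + PBS (3 higher, 0 lower), -0.25 in HFD + PBS against normal diet (1 higher, 1 lower) and 0.13 in HFD + IgG1 against normal diet (0 in either direction). Suclg1, a subunit of succinyl-CoA ligase, the step before succinate, had 169, 110 and 198 CPM in HFD + IgG1 livers, 86.8, 95.8 and 107 CPM in HFD + PBS livers and 118, 135 and 188 CPM in normal diet livers. Its log2 fold changes were 0.72 in HFD + IgG1 against HFD + PBS (SE 0.24, edgeR adjusted p = 0.142) and -0.60 in HFD + PBS against normal diet (SE 0.24, edgeR adjusted p = 0.204).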

How the data were processed

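RNA was total liver RNA, made into libraries with a NEBNext Ultra kit per the labels' protocols. The deposited table, made by the authors, holds raw counts per gene for the 9 libraries; alignment with Bowtie 0.12.2 to mm10 is given in the submitters' processing notes, and the sources used here do not give the counting tool or its strand setting. Genes were annotated with GENCODE M21. Counts were fitted with edgeR 4.0.16 in R 4.3.3 (TMM factors, filterByExpr with a minimum count of 10 and a total of 15, robust quasi-likelihood fit on group means over all 9 libraries), with Benjamini-Hochberg adjustment over all 14763 genes tested and a threshold of 0.05. Standard errors were derived from each fold change and its F statistic. Alternatives were DESeq2 1.42.0, limma-voom (limma 3.58.1), other factors and filters, the replicate number as a block, and fits leaving out libraries. Libraries were placed in groups by their labels. No 2 libraries held identical values (correlations of 0.875 to 0.971 between libraries).

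The members and lists were chosen with earlier results of these data known. The rule for named genes took, in each comparison and complex, up to 2 members with the smallest p in each direction, members past the threshold, tissue isoforms with their partners, the highest level per length in each complex, and up to 2 genes per pathway list and direction. Other members were named after their values were seen: those at an unadjusted p under 0.05, those whose groups stood apart, and a few catalytic subunits. The values of 1 gene are not reported here. Counting precision covers counting error only.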

Additional observations from a re-analysis of the deposited data

How the results depend on the processing

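Members called stayed at 0 in each comparison under DESeq2, limma-voom, other factors, other filters, library totals and the block, and were 0 to 12 with libraries left out of HFD + IgG1 against HFD + PBS, 12 being without HFD + IgG1 replicate 6. In the other comparisons members called were 0 with any single library left out. Genes called, 0 in each comparison, were 1184, 1265 and 111 with DESeq2 (HFD + PBS against normal diet, HFD + IgG1 against HFD + PBS, HFD + IgG1 against normal diet), and 274, 57 and 6 with no filter. With the 6 libraries compared alone they were 184 in HFD + PBS against normal diet and 3 in HFD + IgG1 against normal diet, and without the 3 libraries that go against their labels 2 in HFD + PBS against normal diet. With only the antibody library labelled IgG1 they were 556 against HFD + PBS and 3 against normal diet. Leaving out single libraries gave 0 to 576, 0 to 2356 and 0 to 6 genes, and medians of -0.17 to 0.21, 0.12 to 0.50 and 0.13 to 0.56 over the members. The cause of these differences was not tested.

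Deviations of same-numbered libraries from their group means correlated at -0.49 to 0.01, and those of differently numbered libraries at -0.35 to 0.43. With so few libraries, these values cannot show whether replicate numbers pair the samples. Numbers 3 and 7 each occur in a single library, HFD + PBS replicate 3 and HFD + IgG1 replicate 7. With the replicate number as a block, these libraries therefore add nothing to the comparisons, and the fit is not an adjustment over all 9 libraries. Members called were then 0 in each comparison and the medians were 0.07, 0.07 and 0.13. In HFD + IgG1 against HFD + PBS, 53 of 89 members were then positive and 0 had an unadjusted edgeR p under 0.05, beside 1.4% of genes higher.

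Of the values of members taken by the naming rule, 15 turned in sign, in 27 cases over the settings. Without the 3 libraries that go against their labels these were Ndufa8 (-0.0054), Uqcrh (-0.12) and Cycs (-0.11) in HFD + PBS against normal diet and Ndufa8 (0.0028) in HFD + IgG1 against HFD + PBS. With the block they were Ndufaf1 (0.025) in HFD + PBS against normal diet and Cycs (-0.071) in HFD + IgG1 against HFD + PBS. With library totals they were Sdhc (0.083) and Cox6a1 (0.046) in HFD + PBS against normal diet and Cycs (-0.053) in HFD + IgG1 against HFD + PBS. With only the antibody library labelled IgG1, Ndufa4l2 had 0.12 in HFD + IgG1 against HFD + PBS.

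Leaving out single libraries gave ranges across 0 in HFD + PBS against normal diet for Ndufaf1 (-0.29 to 0.016), Ndufaf6 (-0.32 to 0.076), Sdhc (-0.17 to 0.094), Uqcrh (-0.14 to 0.28), Uqcrc2 (-0.34 to 0.0046), Cycs (-0.13 to 0.35), Cox4i1 (-0.33 to 0.015) and Cox6a1 (-0.29 to 0.23), the highest value each time without normal diet replicate 6. In HFD + IgG1 against HFD + PBS they were Ndufa7 (-0.26 to 0.13), Cycs (-0.033 to 0.38) and Atp5g2 (-0.20 to 0.088), lowest without HFD + IgG1 replicate 7 and highest without replicate 6. In HFD + IgG1 against normal diet Ndufa1 ranged from -0.44 to 0.20. Of the values of members taken by the naming rule, 8 passed the threshold in any setting, each without HFD + IgG1 replicate 6, and belong to the 12 members called there.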

Other observations

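Genes outside the respiratory chain also set single libraries apart from their group. Mup3, which encodes a major urinary protein made by male liver, had 8237, 741 and 8146 CPM in HFD + IgG1 replicates 5, 6 and 7, against 152, 35.3 and 93.4 CPM in HFD + PBS livers and 4634, 766 and 9608 CPM in normal diet livers. Elovl3, a fatty acid elongase, had 467, 1.18 and 469 CPM in HFD + IgG1 livers, against 0.706, 0 and 0.722 CPM in HFD + PBS livers and 295, 0.891 and 558 CPM in normal diet livers. In both genes HFD + IgG1 replicate 6 and normal diet replicate 5 were far below the rest of their groups. Normal diet replicate 5 had 17065 counts of Xist and 0 of the Y-linked genes, while HFD + IgG1 replicate 6 had 0 and 3111. The part of sex in these levels was not tested. Saa1, an acute-phase protein of hepatocytes, had 46.7, 4249 and 124 CPM in HFD + IgG1 livers, against 1670.1, 6884 and 5861 CPM in HFD + PBS livers and 4271, 8882 and 564 CPM in normal diet livers, and was low in the 3 libraries in which most respiratory chain genes were highest. These genes were chosen after their values were seen.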
